A study of Mus musculus with 6 samples.

Results

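The glycolysis, pentose phosphate and TCA cycle enzymes described here are 48 genes chosen by name, with the transporters of glucose and lactate and the kinases that control the entry of pyruvate. The list was made with earlier results of these data known. Of the 48 genes, 44 had a probe set of their own on the array, out of 18193 genes read in the same way. No probe set of the fit named Gpi1, Eno1, G6pdx or Gapdh alone, so that these 4 genes stand outside the counts. Gapdh was read by control probe sets and by probe sets shared with its pseudogenes, both described apart. The genes were grouped by branch into glucose transport, upper glycolysis, lower glycolysis, lactate, pyruvate entry, pentose phosphate and TCA cycle.

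In glycolysis a cell splits glucose into pyruvate, which is either reduced to lactate and exported or taken into mitochondria. There the pyruvate dehydrogenase complex turns it into acetyl-CoA for the TCA cycle, unless pyruvate dehydrogenase kinases switch the complex off. The pentose phosphate pathway branches off at glucose 6-phosphate and yields NADPH and ribose. Mesenchymal stromal cells in culture are known to rely strongly on glycolysis, and many of its genes are textbook targets of the hypoxia-inducible factor HIF-1 and of MYC, which bind short and partly overlapping sequence motifs.

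Total RNA of CD73+ AD-MSCs (3 arrays) and CD73- AD-MSCs (3 arrays) was hybridised to Affymetrix mouse expression arrays. AD-MSCs, the mesenchymal stromal cells that grow out of adipose tissue, were taken here from the groin of adult C57BL/6 mice. Both subgroups were sorted by flow cytometry on CD73, a surface enzyme that makes adenosine from AMP, then cultured in low-sugar DMEM with foetal bovine serum and taken at the fifth passage. They differ only in that sort as far as the labels go, and no agent was added to either. The sources used here do not give the number of mice, nor whether each array stands for a culture of its own, and the p-values therefore rest on the spread between arrays alone, which may be technical. The sort was made before culture, and the arrays read whole cultures, in which fewer cells of a type and less RNA per cell cannot be told apart.

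The deposited values are log2 signals, and a difference is CD73+ minus CD73- on that log2 scale, so that a difference of 1 is a doubling. Array medians lay between 5.28 and 5.37, and within a subgroup the median SD was 0.10. Nt5e, which encodes CD73, averaged 7.73 in CD73+ and 6.84 in CD73- AD-MSCs, 0.88 apart (standard error, SE, 0.20, limma adjusted p = 0.0218). All 8 measured stromal markers lay above the array medians, with a mean level of 10.31 to 10.33 on CD73+ and 9.86 to 9.91 on CD73- arrays, and 5 of the 8 passed the test upwards. The poly-A controls, bacterial transcripts spiked in ahead of labelling as a rule, had a mean difference of -0.93. The 18 hybridisation controls had -0.23 and the 18S ribosomal RNA had -0.56 over 3 probe sets, and the part of such shifts in the results below was not tested.

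Of the 44 genes, 21 were higher in CD73+ AD-MSCs at a limma adjusted p under 0.05, against 10.1% of all genes, and 2 were lower, against 12.6% of all genes, on the deposited scale. The members called higher made up 47.7% of those measured and the members called lower 4.55%. The median difference was 0.17 over the members and -0.02 over all genes, and single members ran from -0.33 to 0.93. On 24 genes every CD73+ array lay above every CD73- array, which held for 18.1% of all genes, and on 9 genes every CD73+ array lay below, against 22.7% of all genes. With only probe sets above the median level in the fit, 22 of 40 members were higher, against 20.7% of the genes. In that fit 3 members were lower, against 26.8% of the genes. Scaling the arrays to their poly-A controls moved the median of all genes to 0.91 and put all 44 members above 0, where 99.2% of all genes were called higher. Scaling to the Gapdh controls, chosen after seeing the data, gave 8 members higher, against 3.94% of all genes, and 17 lower, against 63.3% of all genes. The members' median lay 0.19 above that of all genes on each scale, since such scaling adds 1 amount to every difference.

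**Figure D1:**
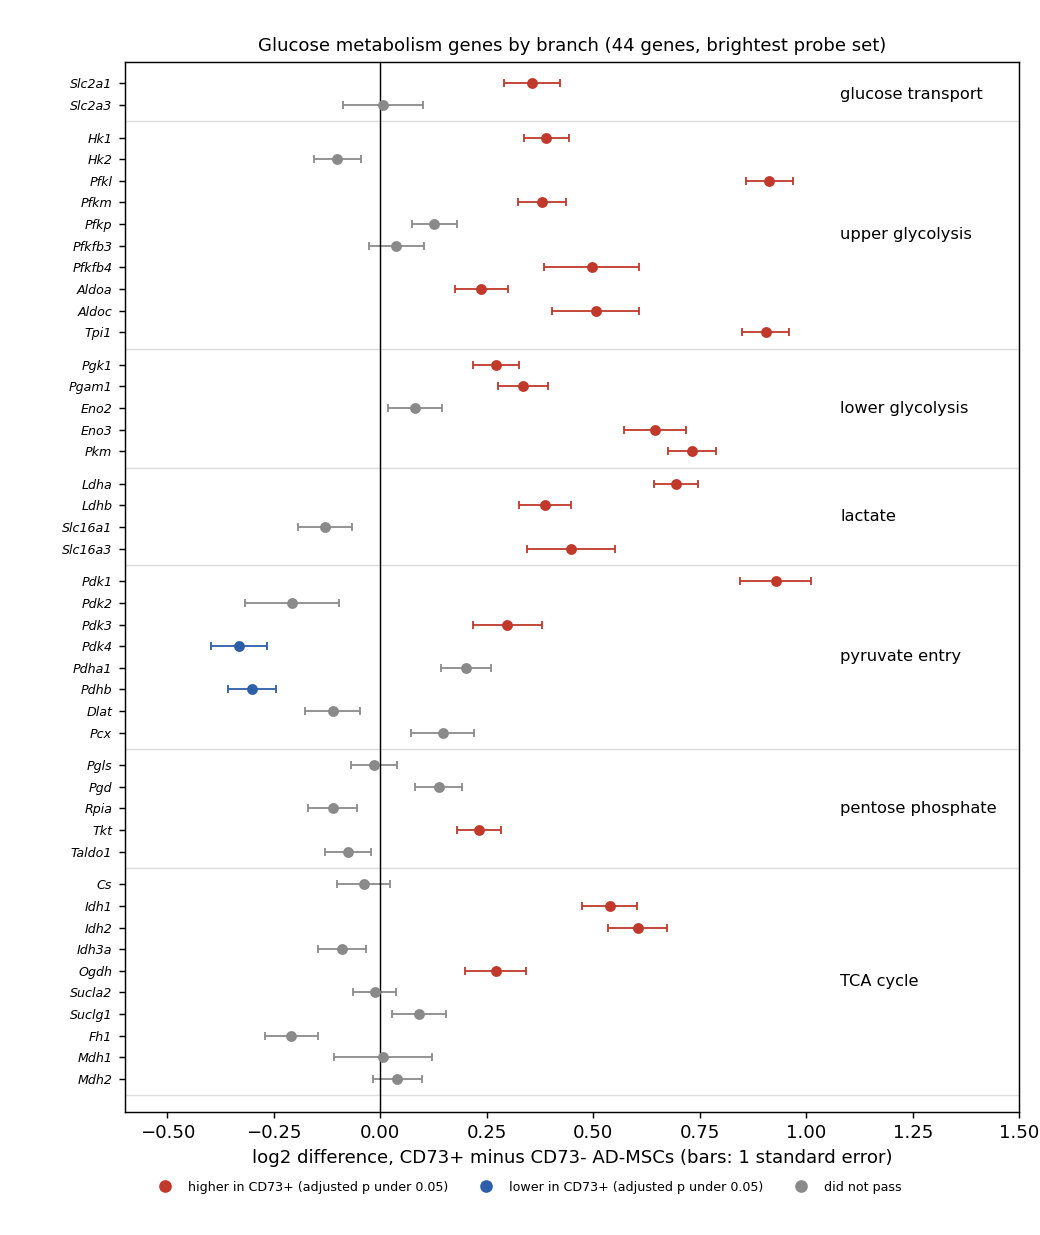
Difference between CD73+ and CD73- AD-MSCs (CD73+ minus CD73-, log2 scale) for each of the 44 genes on its brightest probe set, with 1 standard error as bars and the genes grouped by branch. Colours mark limma adjusted p under 0.05, red for higher and blue for lower in CD73+, and grey points did not pass. The points right of 0.50 are Pfkl, Aldoc, Tpi1, Eno3, Pkm, Ldha, Pdk1, Idh1 and Idh2. The blue points are Pdk4 and Pdhb, which lie right of 0 under poly-A scaling, and the red points of Aldoa and Tkt lie left of 0 under Gapdh scaling.

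On the deposited scale 10.1% of all genes were higher and 12.6% lower. With only probe sets above the median level in the fit, 20.7% of the genes were higher and 26.8% lower. From glucose transport to lactate, 15 of 21 measured genes were higher and 0 were lower on the deposited scale, with a median of 0.38. Scaled to the Gapdh controls these 21 genes had 5 higher and 4 lower with a median of 0.12. Of all genes 3.94% were higher and 63.3% lower on that scale. Scaled to the poly-A controls all 21 were higher, as were 99.2% of all genes. Pyruvate entry had 2 higher and 2 lower of 8, with a median of 0.02. The pentose phosphate branch had 1 higher of 5 (20%) and a median of -0.01. The TCA cycle had 3 higher of 10 (30%) and a median of 0.02, with 0 lower in both. Beside the shares of all genes, no result about these last branches is read from their counts. After scaling to the Gapdh controls the medians of these last branches were -0.25, -0.28 and -0.24, and after scaling to the poly-A controls 0.94, 0.91 and 0.95. No test compared the branches with each other.

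**Figure D2:**
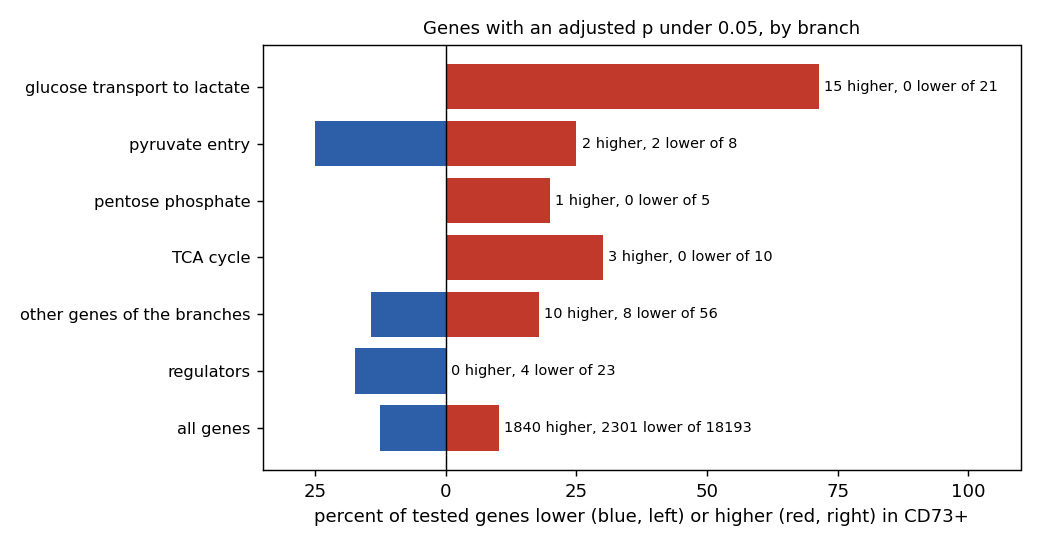
Percent of the tested genes of each branch and list that were lower (blue, left of 0) or higher (red, right of 0) in CD73+ than in CD73- AD-MSCs at a limma adjusted p under 0.05 on the deposited scale, with the counts printed beside each bar. The glucose transport to lactate bar reaches 71.4% on the right and has no left part, while of all genes 10.1% were higher and 12.6% lower. After scaling to the Gapdh controls that bar would hold 5 higher and 4 lower of 21. On that scale 3.94% of all genes were higher and 63.3% lower.

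The sequences before the start sites are shown for the 5 genes with the largest rise and for the 2 that fell, since known regulators of these pathways read short motifs there. Each line holds the 250 bases before the most upstream start in RefSeq on GRCm38.p6, written 5′ to 3′ on the strand of the gene. Capitals mark ACGTG and GCGTG, the cores of the hypoxia response element, on either strand (CACGT and CACGC when read from the other strand), and the E-box CACGTG, which contains ACGTG on both strands.
Ldha (chr7:46845554-46845803, + strand): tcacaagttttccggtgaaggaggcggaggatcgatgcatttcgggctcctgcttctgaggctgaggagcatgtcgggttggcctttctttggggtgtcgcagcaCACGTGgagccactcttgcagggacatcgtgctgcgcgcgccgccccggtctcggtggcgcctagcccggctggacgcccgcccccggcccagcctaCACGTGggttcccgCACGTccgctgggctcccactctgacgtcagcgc
Pdk1 (chr2:71872974-71873223, + strand): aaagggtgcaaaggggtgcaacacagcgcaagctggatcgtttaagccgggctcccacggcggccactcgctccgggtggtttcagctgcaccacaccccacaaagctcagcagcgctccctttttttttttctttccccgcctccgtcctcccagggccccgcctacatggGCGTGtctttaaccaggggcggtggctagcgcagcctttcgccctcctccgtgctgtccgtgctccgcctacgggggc
Pfkl (chr10:78009808-78010057, - strand): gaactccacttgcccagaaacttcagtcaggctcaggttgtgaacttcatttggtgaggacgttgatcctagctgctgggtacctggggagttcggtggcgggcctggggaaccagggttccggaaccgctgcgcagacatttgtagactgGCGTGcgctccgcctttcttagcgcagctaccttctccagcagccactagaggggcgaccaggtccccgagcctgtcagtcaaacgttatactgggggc
Tpi1 (chr6:124814159-124814408, - strand): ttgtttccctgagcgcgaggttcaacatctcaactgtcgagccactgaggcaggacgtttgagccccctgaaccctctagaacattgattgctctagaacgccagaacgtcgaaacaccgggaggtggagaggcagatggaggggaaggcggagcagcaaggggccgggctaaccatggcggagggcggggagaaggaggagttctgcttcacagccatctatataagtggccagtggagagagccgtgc
Pkm (chr9:59656326-59656575, + strand): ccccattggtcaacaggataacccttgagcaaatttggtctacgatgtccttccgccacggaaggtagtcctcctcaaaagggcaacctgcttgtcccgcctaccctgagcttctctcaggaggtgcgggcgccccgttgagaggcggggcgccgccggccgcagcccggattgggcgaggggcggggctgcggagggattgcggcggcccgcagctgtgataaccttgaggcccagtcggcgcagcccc
Pdk4 (chr6:5496279-5496528, - strand): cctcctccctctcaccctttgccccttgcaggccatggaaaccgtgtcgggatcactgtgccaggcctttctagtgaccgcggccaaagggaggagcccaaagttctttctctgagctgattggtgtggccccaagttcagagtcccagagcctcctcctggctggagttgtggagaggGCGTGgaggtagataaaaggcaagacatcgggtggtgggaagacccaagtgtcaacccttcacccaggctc
Pdhb (chr14:8172993-8173242, - strand): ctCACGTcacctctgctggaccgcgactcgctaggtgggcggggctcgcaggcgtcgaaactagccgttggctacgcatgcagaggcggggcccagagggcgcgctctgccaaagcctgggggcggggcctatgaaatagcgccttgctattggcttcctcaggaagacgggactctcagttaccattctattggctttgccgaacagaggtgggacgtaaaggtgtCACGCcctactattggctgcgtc
The Ldha sequence held 5 core matches, 4 of them inside its 2 E-boxes, and the last one began 34 bases before the start. Pdk1 and Pfkl each held 1 core, which began 78 bases before the start in Pdk1 and 99 bases before it in Pfkl. Tpi1 and Pkm held none, while Pdk4 held 1 and Pdhb held 2. Of all tested genes with a sequence 49.8% held a core, and whether any match is bound was not tested.

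Over the RefSeq table, 46 of the 48 members had such a sequence, all but Slc2a3 and Idh3a. Among tested members, a core was found in 16 of 21 that were higher (76.2%), in both that were lower and in 15 of 19 that did not pass (78.9%). It was found in 49.8% of the 14452 tested genes with a sequence, whose median GC content was 57.6%, against 61% for the members. The E-box was found in 5 of 42 members (11.9%) and in 7.6% of the tested genes. These matches describe the letters in the window only.

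Glucose enters through the facilitative transporters GLUT1 (Slc2a1) and GLUT3 (Slc2a3). Slc2a1 had log2 signals of 10.17, 10.21 and 10.25 on the CD73+ arrays, against 9.90, 9.91 and 9.75 on the CD73- arrays. The subgroups did not overlap, and the difference was 0.36 (SE 0.07, limma adjusted p = 0.00874), with both other Slc2a1 probe sets also higher by 0.43 and 0.45. Slc2a3 was dim on all of its 4 probe sets. On the brightest it had 3.90, 4.06 and 3.94 on CD73+ arrays, against 3.77, 4.04 and 4.07 on CD73- arrays, and the subgroups overlapped.

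Hexokinases trap glucose in the cell as glucose 6-phosphate. Hk1 had 9.89, 9.90 and 9.87 in CD73+ AD-MSCs, against 9.47, 9.53 and 9.49 in CD73- AD-MSCs, a difference of 0.39 (SE 0.05, limma adjusted p = 0.00254). A second, dimmer Hk1 probe set was higher by 0.72, so the size of the change depended on the probe set. Hk2, the isozyme known for its response to insulin and hypoxia, had 9.29, 9.20 and 9.27 on CD73+ arrays, against 9.38, 9.34 and 9.35 on CD73- arrays. Its subgroups did not overlap either, with CD73+ below, but the difference of -0.10 did not pass (limma adjusted p = 0.279) and was 0.83 after scaling to the poly-A controls.

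Phosphofructokinase, the committed and most regulated step, is built from liver (Pfkl), muscle (Pfkm) and platelet (Pfkp) type subunits. Pfkl had 9.01, 8.98 and 8.92 on the CD73+ arrays, against 8.08, 8.03 and 8.06 on the CD73- arrays. The gap was 1.88-fold, or 0.91 on the log2 scale (SE 0.06, limma adjusted p = 0.000156), far beyond the spread within either subgroup. Of its other probe sets, 1 was higher by 0.88 and the dimmest had 0.44 without passing (adjusted p = 0.112). Pfkm had 8.01, 8.09 and 8.01 in CD73+ AD-MSCs, against 7.63, 7.70 and 7.64 in CD73- AD-MSCs, a difference of 0.38 (limma adjusted p = 0.00352). The platelet type subunit Pfkp had 8.98, 8.96 and 8.92 on CD73+ arrays, against 8.83, 8.81 and 8.84 on CD73- arrays. Its difference was 0.13 on this, its brightest probe set (adjusted p = 0.155), and of 0.44 on another (adjusted p = 0.00552), so that no single call describes it.

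Fructose 2,6-bisphosphate, the strongest activator of phosphofructokinase, is made by the bifunctional enzymes PFKFB3 and PFKFB4. Pfkfb4 had 7.02, 6.88 and 6.73 on CD73+ arrays, against 6.38, 6.20 and 6.57 on CD73- arrays, a difference of 0.50 (SE 0.11, limma adjusted p = 0.0199). This call was lost without CD73+ replicate 1 or 2 or without CD73- replicate 1 or 2, at adjusted p = 0.061 to 0.0716. Pfkfb3 had 5.95, 6.08 and 6.01 in CD73+ AD-MSCs, against 6.05, 5.94 and 5.94 in CD73- AD-MSCs, and the subgroups overlapped.

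Aldolase and triosephosphate isomerase carry out the split into 3-carbon sugars. Tpi1 had 11.93, 11.90 and 11.86 in CD73+ AD-MSCs, against 10.98, 10.97 and 11.02 in CD73- AD-MSCs. All of its 3 probe sets were higher, by 0.90, 0.80 and 0.80, and on the brightest the gap was 1.87-fold (limma adjusted p = 0.000156). Aldoa, the muscle type aldolase found in most tissues, had 12.19, 12.13 and 12.23 on CD73+ arrays, against 11.99, 11.98 and 11.86 on CD73- arrays. That difference of 0.24 passed narrowly (limma adjusted p = 0.0359) and was lost whichever single array was left out, at adjusted p = 0.0629 to 0.114. Of its 5 probe sets 1 other passed, with 0.29, while 3 with 0.20, 0.18 and 0.12 did not, and scaled to the Gapdh controls its brightest had -0.027. Aldoc, the brain type aldolase, was dim, with 5.47, 5.49 and 5.26 in CD73+ AD-MSCs, against 4.82, 4.81 and 5.09 in CD73- AD-MSCs. It was higher by 0.51 (limma adjusted p = 0.0126), a call lost without CD73+ replicate 1 (adjusted p = 0.0516) and without CD73- replicate 2 (adjusted p = 0.0512), and its other probe set, dimmer still, had -0.01.

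**Figure D3:**
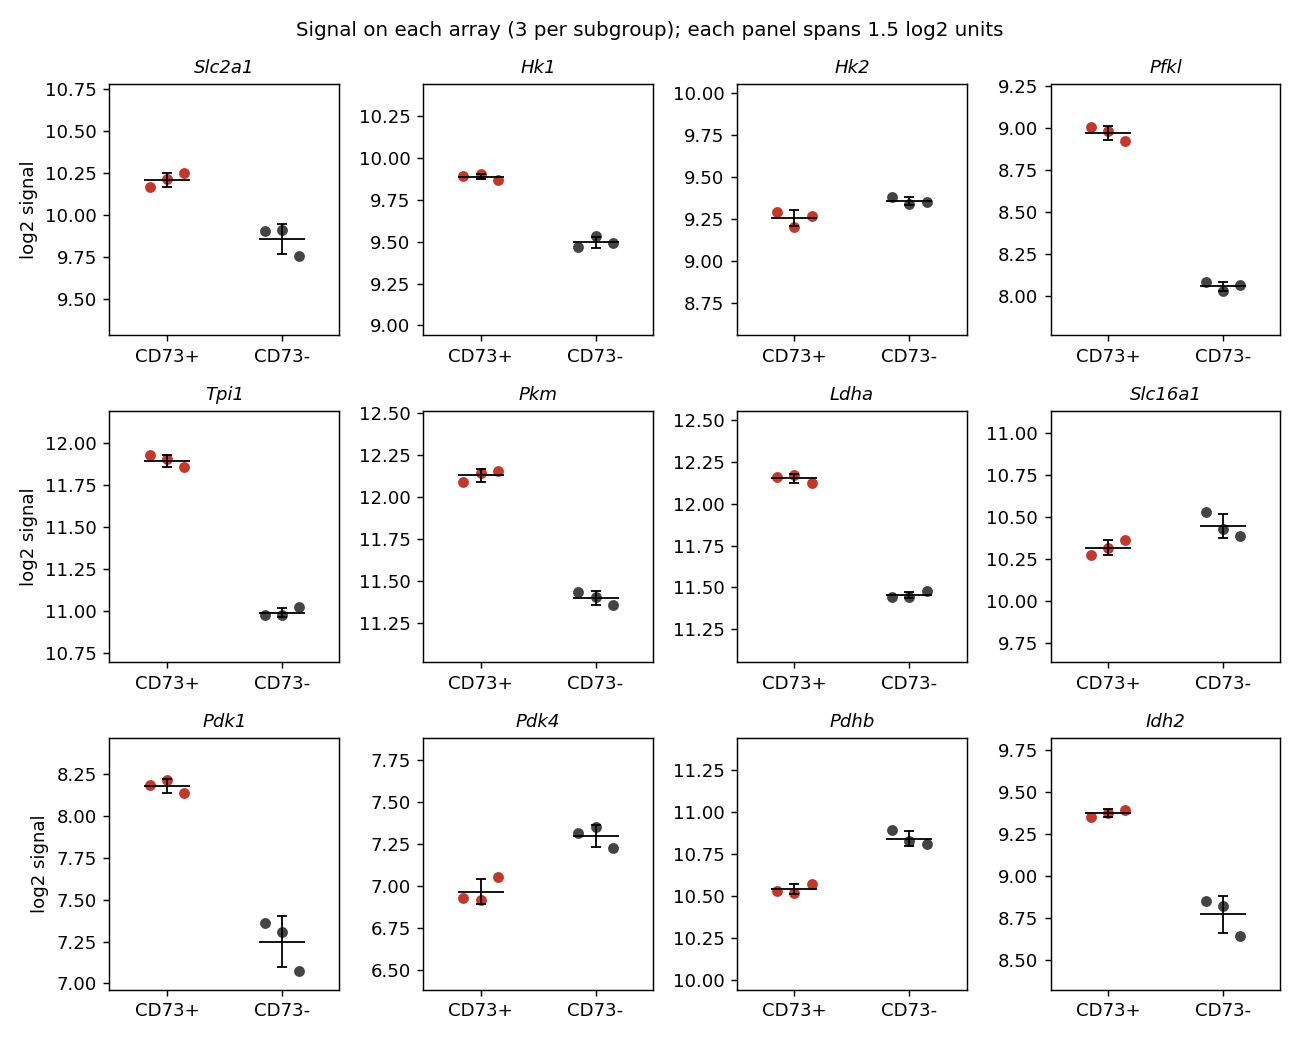
Log2 signal on each array for 12 genes, CD73+ arrays on the left (red) and CD73- arrays on the right (dark) of each panel, with the mean as a line and the SD as bars (n = 3 each). Every panel spans the same height; the subgroups do not overlap in any of them, with CD73+ above for Pfkl (8.92 to 9.01 in CD73+, against 8.03 to 8.08 in CD73-) and below for Hk2, Slc16a1, Pdk4 and Pdhb, of which Hk2 and Slc16a1 did not pass and all 4 turn under poly-A scaling.

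The later steps of glycolysis, in which ATP is made, begin with Gapdh, which is a control gene on this array. Its 3 control probe sets were fitted only when controls were kept in, an alternative chosen after seeing the data. They were then higher by 0.26, 0.24 and 0.29 (limma adjusted p = 0.0105, 0.0199 and 0.00794). The probe set in the middle of the transcript had 13.38, 13.33 and 13.33 on CD73+ arrays, against 13.05, 13.06 and 13.07 on CD73- arrays, so the gene often used as a reference was itself higher on the deposited scale, though by construction not where Gapdh is used to scale the arrays.

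Phosphoglycerate kinase and mutase follow. Pgk1 had 12.72, 12.71 and 12.65 on CD73+ arrays, against 12.41, 12.40 and 12.44 on CD73- arrays, and its 3 probe sets were all higher, by 0.27, 0.18 and 0.23. On the brightest (limma adjusted p = 0.0123) the call was lost without CD73+ replicate 1 or 2 or without CD73- replicate 2, at adjusted p = 0.0509 to 0.0587. Pgam1, the widely expressed mutase, had 12.14, 12.12 and 12.18 on CD73+ arrays, against 11.88, 11.77 and 11.78 on CD73- arrays, a difference of 0.34 (limma adjusted p = 0.00688).

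Enolase and pyruvate kinase close the pathway. Eno3, the muscle type enolase, had 8.85, 8.92 and 8.74 in CD73+ AD-MSCs, against 8.23, 8.25 and 8.10 in CD73- AD-MSCs. It was higher by 0.65 (SE 0.07, limma adjusted p = 0.00123), whereas Eno2, the neuronal type, averaged 6.90 ± 0.09 in CD73+ and 6.82 ± 0.02 in CD73- AD-MSCs (SD, n = 3 each) and overlapped. Pkm, which makes pyruvate and ATP, had 12.09, 12.15 and 12.16 on CD73+ arrays, against 11.43, 11.41 and 11.36 on CD73- arrays. The gap of 0.73 (SE 0.06, limma adjusted p = 0.000305) was 1.66-fold, and the only Pkm probe set in the fit was not assigned to its M1 or M2 splice form here.

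Lactate dehydrogenase turns pyruvate into lactate, with the A subunit favouring lactate and the B subunit pyruvate. Ldha had 12.16, 12.17 and 12.12 in CD73+ AD-MSCs, against 11.45, 11.44 and 11.48 in CD73- AD-MSCs, a 1.62-fold gap (log2 difference 0.69, SE 0.05, limma adjusted p = 0.000293). Its promoter is the one printed above with both E-boxes. Ldhb had 7.58, 7.57 and 7.55 on CD73+ arrays, against 7.09, 7.20 and 7.25 on CD73- arrays, and all 4 of its probe sets were higher, by 0.39 to 0.53, so that both subunits moved the same way.

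The lactate transporters MCT1 (Slc16a1) and MCT4 (Slc16a3) did not share a call. Slc16a3, the exporter of glycolytic cells, was dim, with 4.86, 4.91 and 5.12 on CD73+ arrays, against 4.67, 4.35 and 4.52 on CD73- arrays. It was higher by 0.45 (limma adjusted p = 0.0215), but not without CD73+ replicate 2 or 3 or without CD73- replicate 2 or 3 (adjusted p = 0.0509 to 0.0694). Slc16a1 had 10.28, 10.32 and 10.37 in CD73+ AD-MSCs, against 10.53, 10.43 and 10.39 in CD73- AD-MSCs, a difference of -0.13 that did not pass (limma adjusted p = 0.215) and was 0.80 after scaling to the poly-A controls. Whether the 2 transporters differ from each other was not tested.

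At the entry of pyruvate into mitochondria, kinase genes moved in opposite directions on the deposited scale, and all the same way after scaling to the poly-A controls. The 4 pyruvate dehydrogenase kinases all inactivate the complex, and Pdk1 is the textbook target of HIF-1 among them, while Pdk4 is known to follow fasting and fatty acids. Pdk1 had 8.18, 8.21 and 8.14 on CD73+ arrays, against 7.36, 7.31 and 7.08 on CD73- arrays. It had the largest difference of the 44 genes, 0.93 (SE 0.08, limma adjusted p = 0.000515), or 1.90-fold. Its other probe sets were higher by 0.83 and 0.90, apart from 1 near the lowest signals that had 0.14 and did not pass.

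Pdk4 moved the other way, with 6.93, 6.92 and 7.05 in CD73+ AD-MSCs, against 7.32, 7.35 and 7.23 in CD73- AD-MSCs, and the subgroups did not overlap. It fell by 0.33 (SE 0.07, limma adjusted p = 0.012), a call lost without CD73+ replicate 1 or 2 or without CD73- replicate 2 (adjusted p = 0.0512 to 0.0539) and turned to 0.59 by scaling to the poly-A controls. Pdk3 had 8.49, 8.49 and 8.52 on CD73+ arrays, against 8.33, 8.24 and 8.04 on CD73- arrays. Its difference of 0.30 (limma adjusted p = 0.0413) was lost when any array but CD73- replicate 1 was left out, at adjusted p = 0.0595 to 0.109. Pdk2 was dim and overlapped, with 3.49, 3.36 and 3.81 in CD73+ AD-MSCs, against 3.76, 3.74 and 3.79 in CD73- AD-MSCs. Without CD73+ replicate 3, the highest of its subgroup, Pdk2 was lower (limma adjusted p = 0.0221).

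The complex itself is made of the E1 subunits (Pdha1 and Pdhb), the E2 core (Dlat) and the E3 subunit (Dld). Pdhb had 10.53, 10.52 and 10.58 on CD73+ arrays, against 10.89, 10.83 and 10.81 on CD73- arrays. It fell by 0.30 (SE 0.06, limma adjusted p = 0.00884), with -0.32 on a dimmer probe set that did not pass (adjusted p = 0.0596), and had 0.62 after scaling to the poly-A controls. Pdha1, the partner of Pdhb in the E1 enzyme, leaned the other way, with 11.27, 11.21 and 11.21 in CD73+ AD-MSCs, against 10.96, 11.05 and 11.08 in CD73- AD-MSCs. Its difference of 0.20 missed the threshold (limma adjusted p = 0.0522). Dlat had a difference of -0.11 (adjusted p = 0.305) and Pcx, pyruvate carboxylase, which feeds oxaloacetate to the cycle, one of 0.15 (adjusted p = 0.243), with overlap in both. The other Dlat probe sets had -0.11 and 0.17, each without overlap, and neither passed (limma adjusted p = 0.255 and 0.0927). The 4 control probe sets of Pcx had differences of 0.05 to 0.19, none of which passed when controls were kept in the fit (adjusted p = 0.105 to 0.666).

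In the pentose phosphate pathway 1 gene of 5 passed the test. Tkt, the transketolase of the non-oxidative arm, had 11.83, 11.84 and 11.82 on CD73+ arrays, against 11.59, 11.59 and 11.62 on CD73- arrays. Its 3 probe sets were higher by 0.23, 0.31 and 0.33. The brightest (limma adjusted p = 0.0191) lost the call without CD73+ replicate 1 or 2 or without CD73- replicate 1 or 2, at adjusted p = 0.0568 to 0.0764, and had -0.033 when scaled to the Gapdh controls. Taldo1, the transaldolase of the same arm, had a difference of -0.08 and Rpia, which makes ribose 5-phosphate, one of -0.11, and neither passed (limma adjusted p = 0.409 and 0.25). In both the CD73+ arrays lay below the CD73- arrays, and both differences turn positive after scaling to the poly-A controls. Of the oxidative arm, Pgls had -0.01 with overlap. Pgd, the dehydrogenase that yields NADPH, had 0.14 on its brightest probe set (adjusted p = 0.137) and 0.23 on another (adjusted p = 0.0331).

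Among 10 TCA cycle genes those of the NADP-linked isocitrate dehydrogenases changed most. Idh2, the mitochondrial enzyme, had 9.35, 9.38 and 9.40 in CD73+ AD-MSCs, against 8.85, 8.82 and 8.64 in CD73- AD-MSCs, a difference of 0.60 (SE 0.07, limma adjusted p = 0.00134). Its second probe set was dim and had 0.06 (adjusted p = 0.714). Idh1, the cytosolic enzyme, had 9.38, 9.44 and 9.26 on CD73+ arrays, against 8.82, 8.80 and 8.85 on CD73- arrays, and was higher on both probe sets, by 0.54 and 0.57 (limma adjusted p = 0.00156 on the brightest). Neither is the NAD-linked enzyme of the cycle proper.

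Idh3a, the catalytic subunit of that NAD-linked enzyme, had 10.50, 10.51 and 10.44 on CD73+ arrays, against 10.56, 10.62 and 10.54 on CD73- arrays. The difference of -0.09 did not pass (limma adjusted p = 0.343), and a dimmer probe set had 0.33 and did (adjusted p = 0.00995). Ogdh, the 2-oxoglutarate dehydrogenase, had 8.03, 8.18 and 8.11 on CD73+ arrays, against 7.91, 7.87 and 7.73 on CD73- arrays. It was higher by 0.27 (limma adjusted p = 0.0363), and the call was lost whichever array was left out (adjusted p = 0.053 to 0.126). Fh1, the fumarase, had 10.17, 10.16 and 10.26 in CD73+ AD-MSCs, against 10.45, 10.42 and 10.34 in CD73- AD-MSCs. Its difference of -0.21 missed the threshold (limma adjusted p = 0.0554) and passed without CD73- replicate 3 (adjusted p = 0.0474), and it was 0.72 after scaling to the poly-A controls.

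The other TCA cycle genes lay close to 0 on their brightest probe sets. Citrate synthase (Cs), the first enzyme, had -0.04 there (limma adjusted p = 0.753), yet its 2 other probe sets were higher by 0.38 and 0.32 (adjusted p = 0.00277 and 0.0109). The first of these read 10.86, 10.86 and 10.87 on CD73+ arrays, against 10.44, 10.51 and 10.50 on CD73- arrays, so that the result for Cs turned on the choice among probe sets of almost the same brightness. Of the malate dehydrogenases, cytosolic Mdh1 had 10.60, 10.73 and 10.94 in CD73+ AD-MSCs, against 10.91, 10.78 and 10.56 in CD73- AD-MSCs. That was a difference of 0.01 with wide scatter, and another probe set had 0.25 (adjusted p = 0.021). Mitochondrial Mdh2 had 11.92, 11.93 and 12.01 on CD73+ arrays, against 11.87, 11.96 and 11.91 on CD73- arrays, with differences of 0.04 on these and 0.08 on its other probe set, neither of which passed. The succinyl-CoA ligase subunits Sucla2 and Suclg1 had -0.01 and 0.09 (adjusted p = 0.903 and 0.403).

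**Figure D4:**
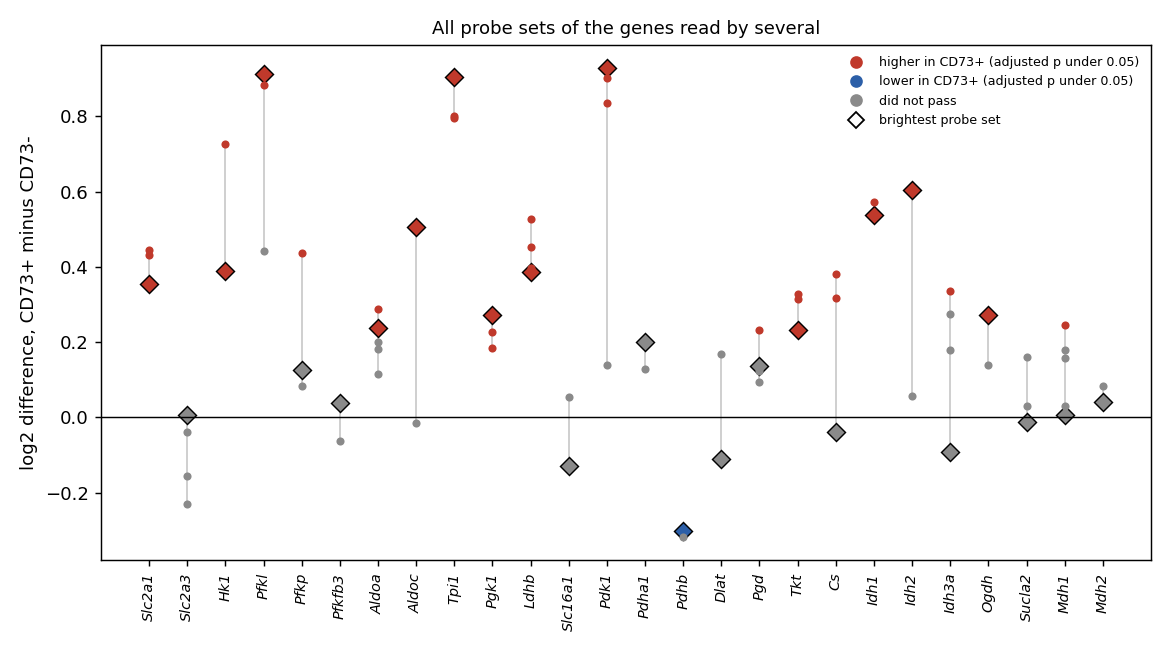
Difference (CD73+ minus CD73-, log2 scale) for every probe set of the genes read by several, with diamonds for the brightest and dots for the others. Red stands for higher and blue for lower in CD73+ at a limma adjusted p under 0.05 on the deposited scale, and grey did not pass. Scaling to the poly-A controls raises every difference by 0.93, so that the blue point turns and by construction no red point can. Scaling to the Gapdh controls lowers every difference by 0.26, and red points below that turn, among them the diamonds of Aldoa and Tkt. For Pfkp, Pgd, Cs, Idh3a and Mdh1 a grey diamond stands beside red dots.

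In all 95 probe sets read the 44 genes. Of the 23 called genes, 9 had 1 probe set and 14 had several. Of those 14, 7 were called the same way on all probe sets and 7 had at least 1 that did not pass, and 0 had a call in the opposite direction. Of the 21 genes without a call, 5 were higher on another probe set. Aldoa, Dlat, Pgd, Tkt and Mdh1 were read from probe sets whose names end in _x_at, whose probes may also match other transcripts, and Slc2a3 and Idh1 from probe sets ending in _s_at, for which the same holds.

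Beyond the listed genes, 56 other genes of the same branches were measured, of which 10 were higher (17.9%, against 10.1% of all genes) and 8 lower (14.3%, against 12.6% of all genes), with a median of 0.05 on the deposited scale. Slc25a10, the mitochondrial dicarboxylate carrier, was higher by 0.58, Bpgm, which makes 2,3-bisphosphoglycerate, by 0.46 and Slc25a1, the citrate carrier, by 0.46 (limma adjusted p = 0.00206, 0.00509 and 0.00502). The largest fall was that of the glucose transporter Slc2a6, with 5.27, 5.56 and 5.73 on CD73+ arrays, against 6.59, 6.62 and 6.47 on CD73- arrays, a difference of -1.04 (limma adjusted p = 0.00116). Dld, the E3 subunit of the pyruvate dehydrogenase complex, had 9.99, 10.05 and 10.05 in CD73+ AD-MSCs, against 10.49, 10.57 and 10.47 in CD73- AD-MSCs, and fell by 0.48 (limma adjusted p = 0.00151). The mitochondrial malic enzyme Me3 also fell by 0.48 (limma adjusted p = 0.0185). Scaling to the poly-A controls adds the same amount to every difference, which turns the falls of Dld and Me3 but not that of Slc2a6.

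Of 23 measured regulators of these pathways 0 were higher, against 10.1% of all genes, and 4 were lower (17.4%), against 12.6% of all genes, with a median of 0.01 on the deposited scale. No result about the list is read from these shares. Hif1a had 11.56, 11.59 and 11.48 on CD73+ arrays, against 11.40, 11.44 and 11.44 on CD73- arrays, and its difference of 0.12 did not pass (limma adjusted p = 0.211). Myc, which activates many glycolytic genes, had 9.59, 9.67 and 9.62 in CD73+ AD-MSCs, against 10.10, 10.22 and 10.05 in CD73- AD-MSCs. It fell by 0.50 (SE 0.07, limma adjusted p = 0.00217). Arrdc4 and Txnip, related arrestin family genes that are induced by glucose and restrain its uptake, did not share a call. Arrdc4 averaged 8.29 ± 0.04 in CD73+ and 8.95 ± 0.11 in CD73- AD-MSCs (SD, n = 3 each) and fell by 0.66 (limma adjusted p = 0.000939), while Txnip, at 0.16, did not pass (adjusted p = 0.0888). Tfam, the factor that maintains mitochondrial DNA, fell by 0.37 (limma adjusted p = 0.00702). The falls of Myc, Arrdc4 and Tfam turn after scaling to the poly-A controls.

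Markers of other cell types were read beside these genes, since muscle and brain isozymes are among the members. Of 5 skeletal muscle markers 1 was higher, Acta1 by 0.38 (limma adjusted p = 0.0087), at 8.03 to 8.58. Myog, Myod1 and Tnnt3 lay between 3.24 and 4.41 on all arrays and Ckm between 5.43 and 5.65. The mean level of the muscle list was 5.08 to 5.27 on CD73+ and 5.08 to 5.18 on CD73- arrays. None of 5 endothelial, 4 adipocyte, 5 pericyte and smooth muscle or 2 Schwann cell markers passed, and in the macrophage and the epithelial lists 1 of 5 each was higher, Csf1r by 0.49 and Msln by 0.61. Ptprc and Adipoq, defining markers of leukocytes and adipocytes, stayed between 2.99 and 3.34 on all arrays, with means at percentiles 10.6 and 11.6 of all probe sets. Other markers of these lists were brighter, with Csf1r at 6.23 to 6.96, Cd68 at 5.50 to 5.98 and Fabp4 at 4.57 to 5.22. Above the median probe set lay 2 of 5 macrophage and 0 of 4 adipocyte markers. The part of the stromal, Acta1, Csf1r and Msln differences in the results above was not tested. The log2 ratio of the probe set at the end over that at the start of the transcript was 0.08 ± 0.01 in CD73+ and 0.19 ± 0.03 in CD73- AD-MSCs for beta-actin (SD, n = 3 each). For Gapdh it was -0.27 ± 0.04 in CD73+ and -0.30 ± 0.02 in CD73- AD-MSCs (SD, n = 3 each), and the part of either ratio was not tested.

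Of the 23 calls, 14 were kept without any 1 array, those of Slc2a1, Hk1, Pfkl, Pfkm, Tpi1, Pgam1, Eno3, Pkm, Ldha, Ldhb, Pdk1, Pdhb, Idh1 and Idh2. The other 9, all with differences of 0.51 or less in size, were lost without at least 1 array, as given beside each.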

How the data were processed

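The 6 arrays were described as deposited by the authors, as log2 values of 45101 probe sets that the submitters' processing notes attribute to RMA (version not given in the sources used here). RMA corrects background, makes the arrays' distributions alike and summarises probes, which removes shifts shared by most transcripts and tends to compress ratios. Scanner files were not used here. After 64 control probe sets had been removed, lmFit and eBayes of limma 3.58.1 (R 4.3.3) were run on 45037 probe sets, 3 arrays against 3, without block or filter. The p-values were adjusted by Benjamini-Hochberg across those 45037, and 0.05 was the threshold. A replicate number was not taken to pair arrays. The methods name one-way ANOVA for the whole study and no test for the arrays.

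By the platform's annotation 34945 probe sets carry 1 gene symbol, 932 several and 9160 are unnamed here, and a gene was read from its brightest probe set with 1 symbol. All 48 members are named, with values per array for those that passed without overlap and for most isozymes of the same step. Of the lists of other genes and regulators up to 3 of the largest rises and falls are named, with Hif1a, Myc and Txnip. The members and lists were chosen with earlier results of these data known. Promoter windows came from the RefSeq table of GRCm38.p6, and no build is named for the arrays. The number of arrays limits the precision. Simulated data with known changes were used to test the fit. It called 52% of the changes of 0.5 and 89% of those of 1 on the log2 scale, with 4 false calls. A member that did not pass may therefore still differ. Alternatives were a replicate block, other normalizations and scalings, a filter, other priors, array weights, an equal-variance t-test, other probe set rules and leaving out each array. Python 3.11.15 with matplotlib 3.10.9 drew the figures.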

Additional observations from a re-analysis of the deposited data

How the results depend on the processing

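On the deposited scale 21 members were higher and 2 lower, with a median difference of 0.17. The count of higher members became 44 with scaling to the poly-A controls, 8 with scaling to the Gapdh controls (chosen after seeing the data, and a member itself) and 13 to 17 when 1 array was left out, lowest without CD73- replicate 2. The share of all genes called higher was 99.2%, 3.94% and 6.43% to 8.96% in these settings. The count of lower members became 0 with the poly-A scaling, 17 with the Gapdh scaling, 4 with a trend in the prior and 1 to 3 when 1 array was left out. The share of all genes called lower was 0.10%, 63.3%, 16.8% and 7.75% to 11.8% in these settings. With the replicate number as a block (replicate block), 14 were higher and 1 lower, all of them called without it. Of all genes 6.92% were higher and 8.12% lower with the block. Arrays with the same number had correlations of -0.14, 0.03 and -0.14 between their deviations, and those with different numbers -0.06 to 0.17. The labels do not say whether a number marks a shared day, sort or mouse. An equal-variance t-test, to which one-way ANOVA reduces with 2 groups, gave 18 higher and 2 lower, against 9.11% and 11.1% of all genes. Of those 18, 15 were among the 21 called higher by limma. Median centring gave 17 higher and 2 lower, against 7.67% and 13.2% of all genes. The median was 0.14 with median centring, 0.19 with cyclic loess, 1.10 with the poly-A and -0.091 with the Gapdh scaling, 0.18 with array weights, 0.20 with the mean of a gene's probe sets, 0.16 with plain _at probe sets preferred and 0.16 to 0.21 without 1 array. With the poly-A scaling the sign turned for Cs (0.89), Dlat (0.81), Fh1 (0.72), Hk2 (0.83), Idh3a (0.84), Pdhb (0.62), Pdk2 (0.72), Pdk4 (0.59), Pgls (0.91), Rpia (0.81), Slc16a1 (0.80), Sucla2 (0.91) and Taldo1 (0.85). With the mean of a gene's probe sets it turned for Cs (0.22), Idh3a (0.17), Pfkfb3 (-0.013), Slc2a3 (-0.11) and Sucla2 (0.059), and with plain _at probe sets for Aldoc (-0.014), Idh3a (0.18) and Slc2a3 (-0.040). The Gapdh scaling turned the sign of 12 members, of which Aldoa (-0.027) and Tkt (-0.033) had been called higher, and the others were Eno2 (-0.18), Mdh1 (-0.26), Mdh2 (-0.22), Pcx (-0.12), Pdha1 (-0.064), Pfkfb3 (-0.23), Pfkp (-0.14), Pgd (-0.13), Slc2a3 (-0.26) and Suclg1 (-0.17). Quantile normalization turned Pfkfb3 (-0.0084) and Pgls (0.014). The sign also turned with cyclic loess for Pgls (0.0076) and Sucla2 (0.0092), with median centring for Mdh1 (-0.026) and Slc2a3 (-0.026), and with array weights for Mdh1 (-0.070) and Slc2a3 (-0.0049). Without 1 array Cs ran between -0.073 and 0.0061, Mdh1 between -0.087 and 0.086, Pgls between -0.037 and 0.0088 and Slc2a3 between -0.090 and 0.061. With plain _at probe sets Pfkl had 0.44 (adjusted p = 0.112 from limma) and Idh2 0.06 (adjusted p = 0.714), since a dimmer probe set was then read. Of 832 values of single members under alternatives, 673 kept their direction and their side of the threshold. Apart from the effects that follow from a rule's own construction, the cause was not tested.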

Other observations

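Probe sets that name Gapdh together with its pseudogenes were not used for any gene above. Of 3 such probe sets, the brightest had 13.60, 13.53 and 13.57 on CD73+ arrays, against 13.26, 13.30 and 13.35 on CD73- arrays, a difference of 0.26 (limma adjusted p = 0.0158). The second had a difference of 0.33 (limma adjusted p = 0.00754), and the dimmest had -0.02 with overlap between the subgroups (limma adjusted p = 0.933).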
